A study of Mus musculus with 16 samples.

Results

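The genes described here encode 8 hexose carriers of the kidney, chosen by symbol from the deposited gene table of 57186 rows and present there with 1 row each. They are 4 sodium-coupled carriers of the SLC5 family (Slc5a1, Slc5a2, Slc5a9 and Slc5a10) and 4 facilitative carriers of the SLC2 family (Slc2a1, Slc2a2, Slc2a4 and Slc2a9). All 8 were among the 25408 genes with at least 100 counts over all libraries. The RNA was taken from whole kidneys of 16 male mice at 16 weeks of age, all Elmo1H/H on a C57BL/6J background. Diabetic mice (D) were Elmo1H/H Ins2Akita/+, in which misfolded proinsulin causes loss of beta cells and lasting hyperglycemia, and non-diabetic mice (ND) were Elmo1H/H Ins2+/+. Within each genotype 4 mice drank water with vitamin B12 at 10 mg/kg per day from 8 weeks of age (ND_B12, D_B12) and 4 did not (ND_C, D_C). The methods give 8 weeks of B12 and the labels give 16 weeks. The Elmo1 allele was carried by every group, so its own effect cannot be told apart from the background of this model.

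Glucose filtered at the glomerulus is recovered in the proximal tubule by cotransport with sodium across the luminal membrane, and then leaves the cell toward the blood through facilitative carriers. SGLT2 (Slc5a2) does most of this work in the early segments and SGLT1 (Slc5a1) recovers what is left further down, while GLUT2 (Slc2a2) is the main basolateral exit. SGLT4 (Slc5a9) and SGLT5 (Slc5a10) carry mannose and fructose as well as glucose. GLUT1 (Slc2a1) is the widely expressed basal carrier, GLUT4 (Slc2a4) is the insulin-responsive carrier of muscle and fat, and GLUT9 (Slc2a9) carries urate.

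The labels of the libraries have to be weighed before any group is compared. Group means printed for single genes were compared with the means of all 1820 possible sets of 4 libraries, over 172 genes that are not among the 8 carriers. Each printed group was matched by 1 set, with a median absolute log2 difference of 0.000158 to 0.000263, and the next closest set differed by 0.0333 to 0.0491. By these matches 5 of the 16 libraries belonged to the group that their label gives and 11 to another. In 2 of them, ND_B12 4 and D_C 1, the genotype differed as well. All 4 libraries labelled D_B12 matched the printed D_C group, and 3 of the 4 labelled D_C matched the printed D_B12 group. ND_C 3 matched the printed ND_B12 group and ND_B12 1 the printed ND_C group. The labelled groups were kept. The main results on diabetes are given with all 16 libraries and again for the 14 libraries left without ND_B12 4 and D_C 1, and each B12 result describes libraries as labelled. A difference between D_B12 and D_C has the opposite sign if these 2 names are exchanged. Diabetes within untreated or within B12-treated kidneys, and the interaction, then also take other values. Some of these exchanged values are given below as log2 differences with no test. Diabetes averaged over treatments still sets the same libraries against each other. These exchanged values leave ND_C 3 and ND_B12 1 in their labelled groups, so they are not a full correction. B12 in non-diabetic kidneys also rests on the labels of ND_C 3 and ND_B12 1. Library totals ran from 65271308 to 91771136 counts, and the common biological coefficient of variation, estimated within the labelled groups, was 0.201. The dates in the library names, of which there are 10, follow the labelled groups. Just 1 date holds both genotypes and 0 dates hold both D_C and D_B12, so group and date cannot be told apart for those 2 groups. The date with both genotypes holds ND_B12 2 to 4 and D_C 1. Counted in days from the first date, the 14 libraries ran up to 21 in non-diabetic and from 28 in diabetic kidneys. Genotype and date therefore cannot be told apart in the 14 libraries.

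The upstream sequences of 3 carriers are shown because counts of these carriers were higher in diabetic kidneys once the 2 libraries of doubtful genotype were left out. They are the 250 bases before annotated RefSeq starts (build GRCm38.p6), printed 5′ to 3′ on the gene's strand, and 5 of the 8 carriers had an entry (Slc5a2, Slc5a9 and Slc2a4 had none). Capitals mark ATTAAC, the reverse complement of GTTAAT, which is the core recognised by hepatocyte nuclear factor 1, and CACGTG, the E-box bound by basic helix-loop-helix factors. Both strands were searched for each of these letters, and the 2 motifs do not overlap.
Slc5a10, upstream start, chr11:61720800-61721049, minus strand: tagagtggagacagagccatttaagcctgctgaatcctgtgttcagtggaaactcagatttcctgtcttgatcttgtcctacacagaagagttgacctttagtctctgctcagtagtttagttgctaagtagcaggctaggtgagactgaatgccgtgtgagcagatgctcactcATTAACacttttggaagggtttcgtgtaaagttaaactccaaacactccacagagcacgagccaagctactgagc
Slc5a10, downstream start, chr11:61719986-61720235, minus strand: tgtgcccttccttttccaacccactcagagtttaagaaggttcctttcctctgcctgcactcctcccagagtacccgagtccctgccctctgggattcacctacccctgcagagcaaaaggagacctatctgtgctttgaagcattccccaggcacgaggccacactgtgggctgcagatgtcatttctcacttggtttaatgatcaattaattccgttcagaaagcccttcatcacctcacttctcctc
Slc5a1, chr5:33103969-33104218, plus strand: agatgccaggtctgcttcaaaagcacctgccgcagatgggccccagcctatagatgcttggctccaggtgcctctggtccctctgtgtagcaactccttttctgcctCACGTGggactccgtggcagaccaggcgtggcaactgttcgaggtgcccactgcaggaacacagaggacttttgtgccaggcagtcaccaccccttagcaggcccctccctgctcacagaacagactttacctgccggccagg
Slc2a2, chr3:28697653-28697902, plus strand: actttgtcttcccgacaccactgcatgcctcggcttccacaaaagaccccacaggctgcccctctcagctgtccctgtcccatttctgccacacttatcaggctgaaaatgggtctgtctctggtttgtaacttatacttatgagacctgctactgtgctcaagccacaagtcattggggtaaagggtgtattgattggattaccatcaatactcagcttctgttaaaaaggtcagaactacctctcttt
The upstream start of Slc5a10 has 1 ATTAAC and the downstream start has 0 matches. The Slc5a1 sequence has 1 CACGTG. The first motif is found in 6.43% of 32851 mouse promoter windows of this length and the second in 6.02%. The Slc2a2 sequence, and those of Slc2a1 and Slc2a9, hold 0 matches to these letters.

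In levels per transcript length (TPM, transcripts scaled to a fixed total per library, computed from the deposited transcript counts), the carriers fell into a high and a low set. Slc5a2 averaged 244 ± 23.9 TPM (SD, n = 16) and Slc5a10 averaged 197 ± 91.3 TPM, and their ranges over libraries overlapped. Slc2a2 followed at 83.1 ± 13.8 TPM and Slc5a1 at 29.5 ± 7.35 TPM. The range of Slc2a2 overlapped that of Slc5a10 but lay above that of Slc5a1 in all 16 libraries, which in turn lay above every carrier ranked below it. Slc5a9 (14.0 ± 1.70 TPM), Slc2a1 (13.0 TPM, SD 2.502), Slc2a4 (12.1 ± 1.92 TPM) and Slc2a9 (10.5 ± 1.55 TPM) came last, and each neighbouring pair of these overlapped. With gene counts per kilobase of merged exons in place of transcript lengths, Slc5a1 moved to 37.7 TPM, Slc2a4 to 7.93 TPM and Slc2a9 to 6.75 TPM, and Slc2a1 (15.5 TPM) stood above Slc5a9 (13.5 TPM).

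**Figure D1:**
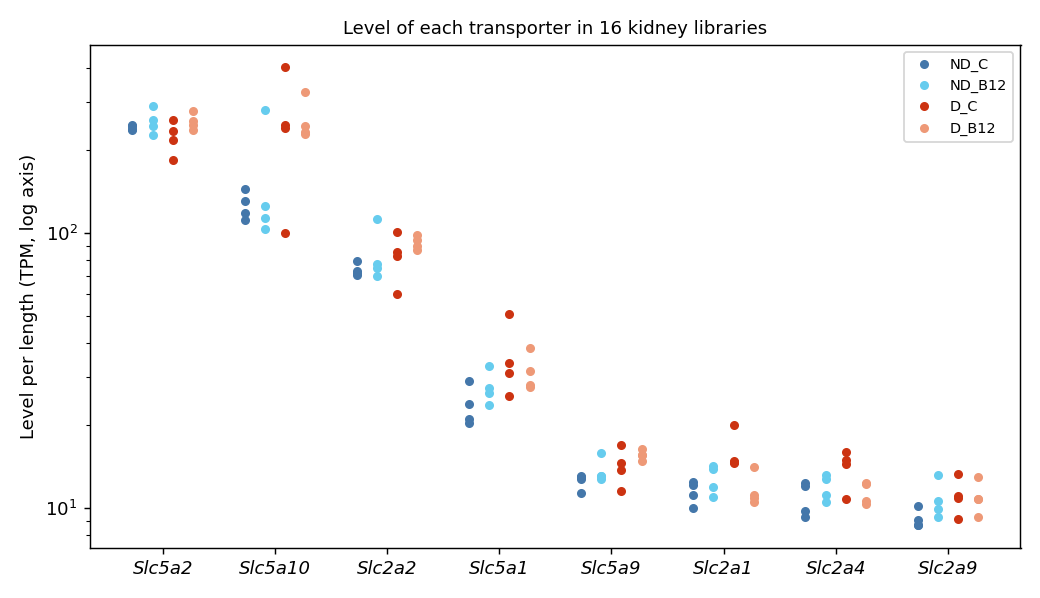
Level of each carrier per transcript length (TPM, log axis), with 1 point per library and the 4 labelled groups in colour. Slc5a2 and Slc5a10 lie highest, at means of 244 and 197 TPM, and Slc5a10 spreads most, from 100 to 400 TPM.

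Diabetes was compared first over both treatments. With all 16 libraries, 0 of the 8 carriers had an adjusted p below 0.05 by edgeR's quasi-likelihood test with Benjamini-Hochberg adjustment over all genes, against 3.02% of the 25408 genes tested. With the 14 libraries, Slc5a10, Slc5a1 and Slc2a2 rose, and 0 of the 8 fell, against 10.2% of 24831 genes called in either direction. When the date in the label was added to the fit of all libraries, the log2 fold change of Slc5a10 was 0.51 (SE 0.56, adjusted p = 0.771) and that of Slc2a2 turned to -0.38. Slc5a10, the most variable carrier, showed the largest difference of the 8 in both fits.

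Slc5a10, the renal mannose and fructose carrier, had normalised read counts (counts divided by size factors) of 14032, 11605, 12943 and 13773 in the ND_C libraries 1 to 4. The ND_B12 libraries held 12642, 11132, 12100 and 27489. The D_C libraries held 9256, 40995, 27221 and 22454, and the D_B12 libraries held 23405, 24171, 34016 and 23349. One ND_B12 library was as high as the diabetic kidneys and one D_C library was lower than every non-diabetic kidney, and these are the 2 libraries whose genotype is in doubt. With all libraries, the log2 fold change for diabetes averaged over treatments was 0.83 (SE 0.24, adjusted p = 0.0751 by edgeR). Without these 2 libraries it was 1.17 (SE 0.12, adjusted p = 0.000112), with means of 27944 ± 6998 (SD, n = 7) in diabetic and 12604 ± 1076 (SD, n = 7) in non-diabetic kidneys, a ratio of 2.22. The 7 diabetic libraries, from 22454 upward, then lay above the 7 non-diabetic libraries, which reached 14032. Such a separation was found for Slc5a10 and Slc2a2 among the 8 carriers and for 2.72% of all genes. In the 14 libraries the change was 1.21 in the untreated groups (SE 0.17, adjusted p = 0.00212) and 1.14 in the B12-treated groups (SE 0.18, adjusted p = 0.00547). With the names D_C and D_B12 exchanged, the differences were 1.01 from ND_C and 1.34 from ND_B12. Without D_C 2 as well, the averaged change was 1.03 (SE 0.094, adjusted p = 6.27e-05). The only date with both genotypes holds D_C 1 (9256) and ND_B12 2 to 4 (11132, 12100 and 27489), so no value within a date is free of the 2 libraries in doubt.

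**Figure D2:**
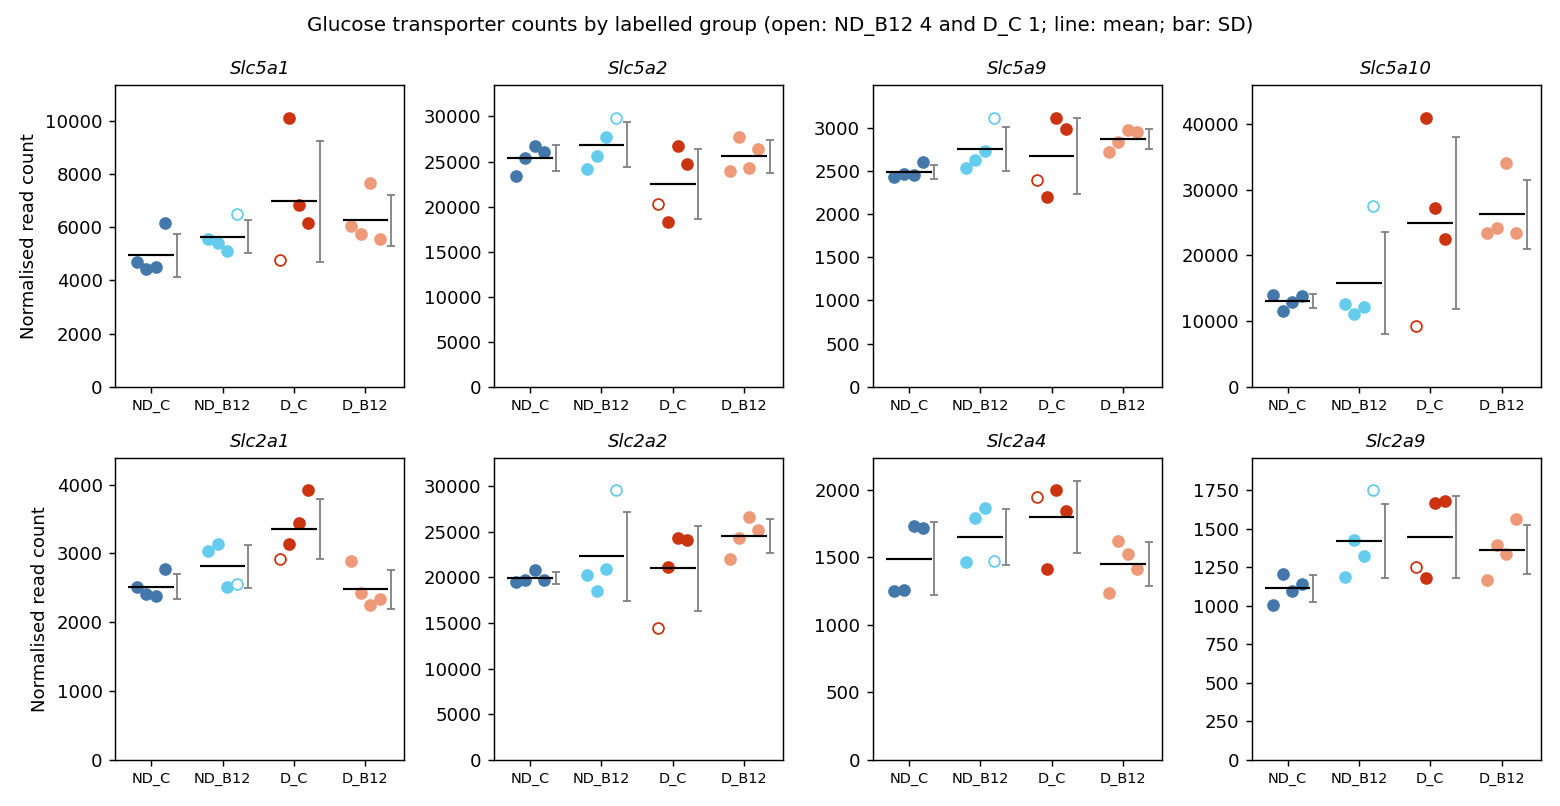
Normalised read count of each carrier in each library, by labelled group (4 libraries each), with the group mean as a line and the SD as a bar; open points are ND_B12 4 and D_C 1, whose genotype is in doubt. For Slc5a10 the open points, 27489 and 9256, each sit with the other genotype.

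Slc5a1 (SGLT1), which recovers the glucose left by SGLT2, had 4681, 4444, 4506 and 6146 normalised counts in ND_C and 5554, 5405, 5115 and 6517 in ND_B12. It had 4750, 10130, 6851 and 6155 in D_C and 6065, 5730, 7684 and 5563 in D_B12. The genotypes overlapped, and D_C 2 was the highest library by a wide margin. The log2 fold change for diabetes averaged over treatments was 0.32 (SE 0.13, adjusted p = 0.181) with all libraries and 0.43 (SE 0.12, adjusted p = 0.0286) with the 14. In the 14 libraries the rise passed in the untreated groups (0.64, SE 0.16, adjusted p = 0.0270) and had 0.23 (SE 0.16, adjusted p = 0.505) in the B12-treated groups, and the difference between these 2 effects had an adjusted p of 0.400. The calls in the 14 did not hold once D_C 2 was left out as well, though the changes stayed positive. Without D_C 2 alone, so with both libraries in doubt kept, the averaged change was 0.21 (SE 0.098, adjusted p = 0.294). That in untreated kidneys was then 0.25 (SE 0.14, adjusted p = 0.390). With D_C 2 left out beside the 2 libraries in doubt, a choice made after seeing the data, the averaged change was 0.31 (SE 0.093, adjusted p = 0.0563) and that in untreated kidneys 0.39 (SE 0.14, adjusted p = 0.104). With the names D_C and D_B12 exchanged in the 14 libraries, the difference from ND_C was 0.34 and that from ND_B12 was 0.52.

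Slc5a2 (SGLT2), the carrier of most glucose recovery, had 23426 to 26725 normalised counts in ND_C and 24194 to 29884 in ND_B12. It had 20321, 18327, 26682 and 24752 in D_C and 23893, 27772, 24274 and 26354 in D_B12. The genotypes overlapped, and the 2 lowest libraries were D_C 2 and D_C 1. The log2 fold change for diabetes was -0.12 (SE 0.073, adjusted p = 0.381) with all libraries and -0.07 (SE 0.074, adjusted p = 0.616) with the 14, so no difference was detected in these 2 fits. The change was -0.44 (SE 0.14, adjusted p = 0.267) once the label date entered the fit of all libraries. Slc5a9 (SGLT4) varied little, from 2203 in D_C 2 to 3122 in ND_B12 4, and its log2 fold change for diabetes was 0.08 (SE 0.068, adjusted p = 0.560) with all libraries and 0.14 (SE 0.065, adjusted p = 0.202) with the 14. Without D_C 2 as well, the change of Slc5a9 was 0.21 (SE 0.039, adjusted p = 0.00622). D_C 2 thus held the highest count of Slc5a1 and Slc5a10 and the lowest of Slc5a2 and Slc5a9 among the 16 libraries. In the same library the summed level of 5 markers of the late proximal tubule (S3) was the lowest of all, at 4615 CPM (counts scaled to a fixed library total), and that of 6 markers of the early proximal tubule (S1 and S2) the second lowest, at 6537 CPM. The summed collecting duct markers (513 CPM) and endothelial markers (282 CPM) were the highest there, and the immune markers (104 CPM) the lowest. Their part in the carrier values was not tested.

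Slc2a2 (GLUT2), the basolateral exit for glucose, had 19464, 19668, 20864 and 19725 normalised counts in ND_C and 20279, 18554, 20880 and 29549 in ND_B12. It had 14399, 21122, 24306 and 24130 in D_C and 22066, 24278, 26611 and 25230 in D_B12. The highest and the lowest library were again ND_B12 4 and D_C 1. The log2 fold change for diabetes was 0.10 (SE 0.11, adjusted p = 0.645) with all libraries and 0.26 (SE 0.050, adjusted p = 0.00498) with the 14, where the means were 23963 ± 1850 (SD, n = 7) in diabetic and 19919 ± 828 (SD, n = 7) in non-diabetic kidneys. In the 14 libraries the change was 0.31 (SE 0.070, adjusted p = 0.0340) in the B12-treated groups and 0.22 (SE 0.070, adjusted p = 0.0715) in the untreated groups. Exchanging the names D_C and D_B12 there gave differences of 0.22 from ND_B12 and 0.30 from ND_C.

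**Figure D3:**
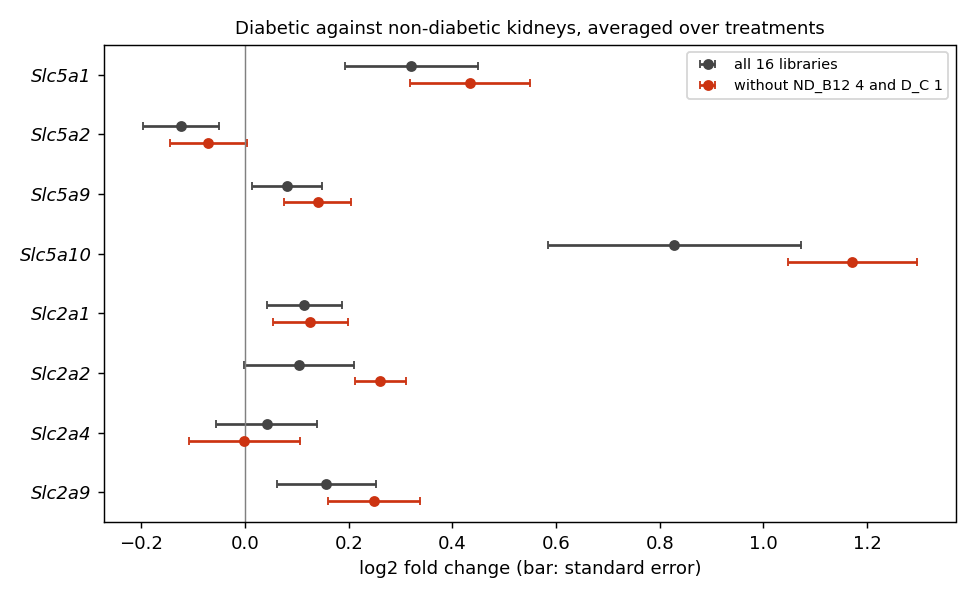
Log2 fold change of each carrier in diabetic against non-diabetic kidneys, averaged over treatments, with standard errors, for all 16 libraries and for the 14 left without ND_B12 4 and D_C 1. Slc5a10 moves from 0.83 to 1.17 and Slc2a2 from 0.10 to 0.26.

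The untreated and the B12-treated groups were then compared separately. With all libraries 0 of the 8 carriers were called for diabetes in untreated kidneys, against 1.66% of all genes, and 0 in B12-treated kidneys, against 0.823%. With the 14 libraries, 4 carriers rose in untreated kidneys (Slc5a10, Slc5a1, Slc2a1 and Slc2a9), against 8.57% of all genes, and 2 rose in B12-treated kidneys (Slc5a10 and Slc2a2), against 2.8%. Slc2a9 (GLUT9), the urate carrier, had 1006 to 1208 normalised counts in ND_C and 1251, 1181, 1667 and 1683 in D_C. Its groups overlapped, and its log2 fold change in untreated kidneys was 0.38 (SE 0.13, adjusted p = 0.144) with all libraries and 0.44 (SE 0.12, adjusted p = 0.0440) with the 14. It was 0.01 (SE 0.14, adjusted p = 0.996) once the label date entered the fit of all libraries. With the names D_C and D_B12 exchanged in the 14 libraries, the difference from ND_C was 0.30.

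Slc2a1 (GLUT1), the basal glucose carrier, had 2507, 2411, 2374 and 2775 normalised counts in ND_C and 3029, 3136, 2519 and 2561 in ND_B12. It had 2913, 3137, 3442 and 3916 in D_C and 2893, 2424, 2256 and 2337 in D_B12. All 4 D_C libraries lay above the 4 ND_C libraries and above the 4 D_B12 libraries. D_C and ND_C did not overlap in 9.44% of all genes. The D_B12 libraries overlapped both non-diabetic groups. The log2 fold change of D_C against ND_C was 0.41 (SE 0.10, adjusted p = 0.0526) with all libraries and 0.47 (SE 0.10, adjusted p = 0.0144) with the 14. That of D_B12 against ND_B12 was -0.18 (SE 0.10, adjusted p = 0.377) with all libraries and -0.22 (SE 0.10, adjusted p = 0.273) with the 14. The difference between these 2 effects was -0.60 (SE 0.15, adjusted p = 0.0790) with all libraries and -0.69 (SE 0.14, adjusted p = 0.0583) with the 14. DESeq2 called it with all libraries, and edgeR did not. All of these values depend on which name is right. With D_C and D_B12 exchanged, the difference from ND_C was -0.02 both with all libraries and with the 14, that from ND_B12 was 0.25 and 0.27, and the interaction turned to 0.27 and 0.29.

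For B12 the edgeR test called 0 of 25408 genes (0%) in non-diabetic kidneys, in diabetic kidneys, averaged over genotypes and for the interaction, and so 0 of the 8 carriers. At an unadjusted p under 0.05 there were 1937, 3468, 1321 and 4093 genes in these comparisons, and DESeq2 called 6, 569, 6 and 781. With the 14 libraries, edgeR called 0.87% of genes for B12 in diabetic kidneys, and Slc2a1 was the 1 carrier among them. Its log2 fold change in D_B12 against D_C was -0.43 (SE 0.10, adjusted p = 0.0978) with all libraries and -0.49 (SE 0.10, adjusted p = 0.0426) with the 14. By exact permutation of the counts, two-sided and with D_C 1 included, its p was 0.0286, the smallest that 4 against 4 allows. Full separation of the 2 groups always gives this p. The other carriers had exact p from 0.114 to 0.914. Separation of D_B12 from D_C was seen for Slc2a1 alone of the 8, and for 6.58% of all genes. Since these 2 groups are the ones whose names are in doubt, the labelled direction, lower with B12, cannot be taken as settled.

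Slc2a4 (GLUT4), the insulin-responsive carrier, had 1253 to 1730 normalised counts in untreated and 1467 to 1863 in B12-treated non-diabetic kidneys. In diabetic kidneys it had 1410 to 1994 without B12 and 1235 to 1623 with it, so all groups overlapped. Its log2 fold change was 0.27 (SE 0.14, adjusted p = 0.306) for diabetes in untreated kidneys (0.23 with the 14 libraries, SE 0.15, adjusted p = 0.376) and -0.31 (SE 0.14, adjusted p = 0.338) for B12 in diabetic kidneys. The difference from ND_C was -0.04 with all libraries and -0.03 with the 14 once the names D_C and D_B12 were exchanged. The usual tissues of Slc2a4 are muscle and fat. The 4 skeletal muscle markers summed to 0 to 0.476 CPM per library, near 0. The 5 adipocyte markers ranged from 0.134 to 55.9 CPM. Slc2a4 had 1254 normalised counts in the library with the fewest (ND_C 2) and 1623 in the library with the most (D_B12 2). It had 1730 in ND_C 3, at 54.0 CPM of these markers, and 1943 in D_C 1, at 49.4 CPM. In ND_B12 1, D_C 2, D_B12 3 and D_B12 4, at 0.214 to 0.676 CPM, it had 1410 to 1525. Against this order, it had 1839 in D_C 4, at 0.327 CPM, and 1235 in D_B12 1, at 12.8 CPM. The relation of Slc2a4 to the adipocyte markers was not tested.

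**Figure D4:**
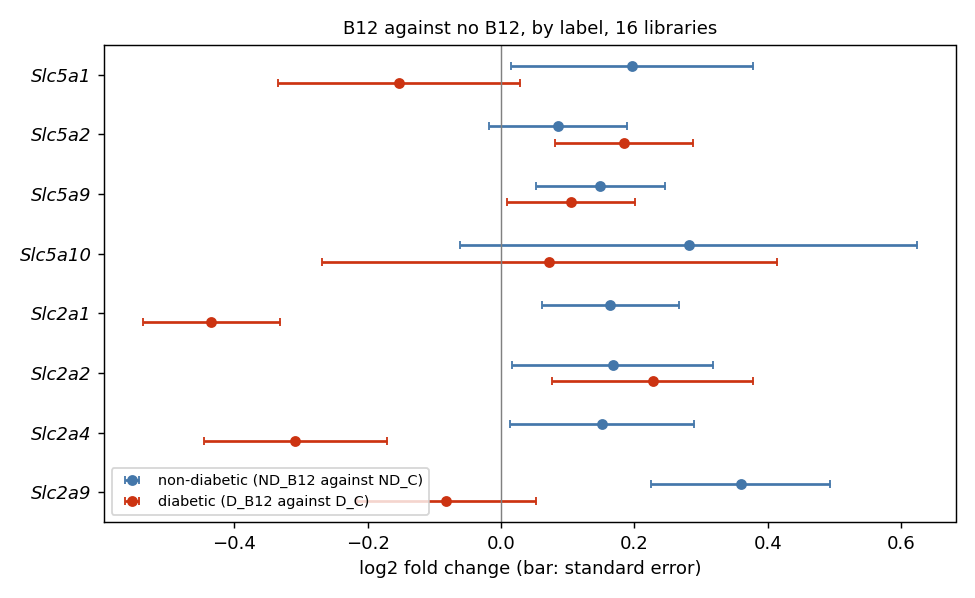
Log2 fold change of each carrier with B12 in non-diabetic and in diabetic kidneys, as labelled, over all 16 libraries, with standard errors. Slc2a1 is at -0.43 in diabetic and at 0.16 in non-diabetic kidneys, and 0 of the 8 carriers pass in either.

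The ratio of Slc5a1 to Slc5a2, per length and described without a test, averaged 0.0973 ± 0.0143 (SD, n = 4) in ND_C and 0.108 ± 0.0119 in ND_B12. It averaged 0.164 ± 0.0739 in D_C and 0.124 ± 0.0271 in D_B12, and the D_C mean rests on D_C 2, at 0.274, where the other D_C libraries had 0.118 to 0.132. The ratio of Slc2a1 to Slc2a2 averaged 0.155 ± 0.0147 in untreated and 0.159 ± 0.0418 in B12-treated non-diabetic kidneys. In diabetic kidneys it averaged 0.198 ± 0.0327 without B12 and 0.127 ± 0.0244 with it. The D_C libraries, from 0.174 to 0.245, lay above the D_B12 libraries, from 0.107 to 0.162, and this order reverses if the 2 names are exchanged. The highest D_C ratio came from D_C 1 and the lowest ND_B12 ratio, 0.106, from ND_B12 4, the 2 libraries of doubtful genotype.

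Transcript counts differed in how far they could be resolved. Slc5a1 has 1 annotated transcript in the table, and 1 transcript took 99.6% of Slc2a1, 98.2% of Slc2a2 and 96.0% of Slc5a2 counts on average. Slc5a10-203, which starts at base 61610823 of chromosome 11, took 56.1% ± 26.6 of Slc5a10 counts (SD, n = 16) and Slc5a10-204, which starts at 61610772, took 24.1% ± 6.38. Slc5a10-201, which starts upstream at 61611625 (all GRCm39), was listed at 0 in 9 libraries and took up to 60.8% in another (ND_B12 2), so the division among these transcripts varied between libraries of 1 group. Slc2a4 was divided between the coding Slc2a4-201 (49.9% ± 12.8) and the intron-retaining Slc2a4-207 (43.1% ± 12.2), and Slc2a9 among 3 main transcripts, led by Slc2a9-203 at 46.7% ± 14.4.

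**Figure D5:**
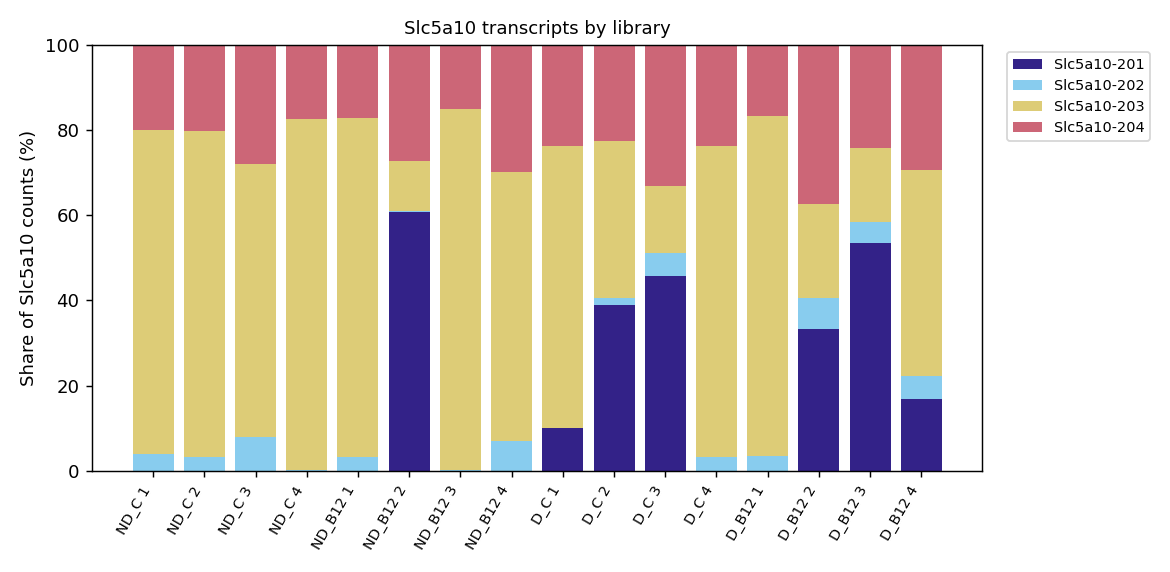
Share of Slc5a10 counts (%) given to each of its 4 transcripts, as a stacked bar for each library in label order. Slc5a10-201 is listed at 0 in 9 libraries and reaches 60.8% in ND_B12 2.

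Gene positions (GRCm39) bear on how reads could be assigned, since all 8 carriers overlap other annotated genes. Slc5a10 (ENSMUSG00000042371, chr11:61563607-61611652, minus strand) overlaps Grap and Fam83g on the opposite strand. Slc5a2 (ENSMUSG00000030781, chr7:127864829-127871602, plus strand) overlaps Rusf1, and Slc2a4 (ENSMUSG00000018566, chr11:69831006-69839070, minus strand) overlaps Ybx2 and Gm72743, all on the opposite strand. Slc5a9 (ENSMUSG00000028544, chr4:111732572-111760115, minus strand) faces Gm69958, Slc2a2 (ENSMUSG00000027690, chr3:28752051-28785508, plus strand) faces 1700112D23Rik, and Slc2a9 (ENSMUSG00000005107, chr5:38506616-38660486, minus strand) faces Gm40290 and Gm73413. Slc5a1 (ENSMUSG00000011034, chr5:33261563-33320214, plus strand) shares its own strand with Gm15936 besides facing Gm70709 and 5033423K11Rik, and Slc2a1 (ENSMUSG00000028645, chr4:118965908-118996365, plus strand) shares its own with Mir1957a besides facing Gm12867 and Gm12868. The methods describe strand tags set from intron motifs during alignment, and do not give whether the libraries or the counting were strand-specific. Reads of overlapping genes may therefore not be separated, and strand would not resolve those on the same strand.

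Related carriers and regulators were examined as lists. Of 8 other SLC2 carriers, 7 were tested and 0 were called for diabetes averaged over treatments, with a median log2 fold change of 0.14, beside 0.01 over all genes and 0.11 for the 4 SLC2 members. Slc2a5, the fructose carrier GLUT5, came closest, at 0.55 (SE 0.17, adjusted p = 0.0930), and reached 0.77 (SE 0.12, adjusted p = 0.00115) in the 14 libraries. Its normalised counts ran from 5252 to 7497 in ND_C and from 5443 to 12685 in D_C. Slc2a6 had 0.38 (SE 0.14, adjusted p = 0.157), and 0.45 (SE 0.14, adjusted p = 0.0635) in the 14, from counts of 31.8 to 89.3. Of 9 other SLC5 carriers, 7 were tested and 0 were called, and the monocarboxylate carriers Slc5a8 (0.22, SE 0.11, adjusted p = 0.300) and Slc5a12 (-0.20, SE 0.11, adjusted p = 0.333) had the smallest p-values among them. In the 14 libraries 2 of them rose, Slc5a8 (0.30, SE 0.085, adjusted p = 0.0372) and the inositol and glucose carrier Slc5a11 (0.24, SE 0.060, adjusted p = 0.0210), the latter named after its values were seen.

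Of 13 regulators and partners of these carriers, 12 were tested and 1 fell. Pdzk1ip1 (MAP17), the membrane protein that SGLT2 needs for activity, had a log2 fold change of -0.23 (SE 0.044, adjusted p = 0.0178) with all libraries and -0.22 (SE 0.045, adjusted p = 0.00729) with the 14. Its normalised counts were 20611 to 23354 in untreated and 21346 to 23596 in B12-treated non-diabetic kidneys. They were 16772 to 19429 in untreated and 18405 to 19944 in B12-treated diabetic kidneys. As labelled, and with the libraries of doubtful genotype included, the diabetic libraries, at most 19944, lay below all non-diabetic libraries, at least 20611. This separation was found for 0.386% of all genes and for 0 of the 8 carriers. It fails if the genotypes of the doubtful libraries are exchanged. The doubtful library labelled non-diabetic, a B12-treated one, had at least 21346. The doubtful library labelled diabetic, an untreated one, had at most 19429. Among the remaining libraries the separation held. Tbc1d4, which restrains GLUT4 traffic until insulin acts, rose in the libraries labelled D_C against ND_C by 0.37 (SE 0.083, adjusted p = 0.0436) with all libraries and 0.34 (SE 0.093, adjusted p = 0.0360) with the 14. The libraries labelled D_B12 differed from ND_C by 0.09 in Tbc1d4, the value that applies if the names are exchanged. Its relative Tbc1d1, named after its values were seen, rose by 0.13 (SE 0.036, adjusted p = 0.0325) for diabetes averaged in the 14 libraries. Hnf4a, a factor that drives proximal tubule genes, had -0.17 (SE 0.061, adjusted p = 0.129), and -0.19 (SE 0.067, adjusted p = 0.0947) in the 14 libraries.

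Markers of several cell types moved in the same comparison, diabetes averaged over treatments. Of the 6 S1 and S2 markers, 1 fell with all libraries, the phosphate carrier Slc34a1 (-0.25, SE 0.048, adjusted p = 0.0178), and of 5 S3 markers 1 fell, the fatty acid carrier Slc27a2 (-0.26, SE 0.064, adjusted p = 0.0378). In the 14 libraries these counts were 2 of 6 and 4 of 5, beside 10.2% of all genes called in either direction. Of the 6 S1 and S2 markers, 2 had a positive change there. The summed S3 markers ran from 6216 to 7041 CPM in untreated and from 5116 to 7195 CPM in B12-treated non-diabetic kidneys. In diabetic kidneys they ran from 4615 to 6424 CPM without B12 and from 4729 to 5581 CPM with it, and 0 of the proximal markers were at 0 in any group. Of 5 collecting duct markers 1 rose with all libraries, the water channel Aqp2 (1.14, SE 0.27, adjusted p = 0.0348), and 2 rose in the 14. The others were divided with all libraries. Aqp3 was at 0.29 (SE 0.092) and Fxyd4 at 0.18 (SE 0.16), while Atp6v1g3 was at -0.09 (SE 0.065) and Slc26a4 at -0.16 (SE 0.11). The sum of the 5 collecting duct markers ran from 176 to 340 CPM in non-diabetic and from 232 to 513 CPM in diabetic kidneys. Of 5 immune markers 2 fell, Cd74 (-0.62, SE 0.11, adjusted p = 0.0149) and C1qa (-0.47, SE 0.12, adjusted p = 0.0382), and in the 14 all 5 fell. Their sum ran from 123 to 258 CPM in non-diabetic and from 104 to 211 CPM in diabetic kidneys. Of 4 smooth muscle markers 1 rose in either fit (Tagln, 0.41, SE 0.11, adjusted p = 0.0476), and of 4 injured tubule markers 1 fell in either (Vcam1, -0.35, SE 0.083, adjusted p = 0.0358). The injured tubule list was divided. With all libraries Lcn2 was at 0.93 (SE 0.31), Krt20 at 0.60 (SE 0.51) and Havcr1 at -0.71 (SE 0.32), and these were not called. With all libraries 0 podocyte, endothelial, thick limb and distal, red cell or adipocyte markers were called. In the 14, 2 of 4 endothelial, 1 of 4 podocyte and 1 of 5 thick limb and distal markers rose, 2 of the last list fell, and 1 of 5 red cell markers fell. In whole kidney, fewer cells of a type and less RNA per cell cannot be told apart, and the part of the marker changes in the carrier values was not tested. The proximal markers that passed were lower in diabetic kidneys, where Slc5a10, Slc5a1 and Slc2a2 passed upward in the 14 libraries.

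Of 16064 genes with a mean of at least 1 CPM, those whose log2 CPM followed Slc5a10 most closely over the 16 libraries were Iqgap2 (Pearson r = 0.983) and Adam11 (r = 0.979). For Slc5a1 they were Gstp2 (r = 0.954) and Rps6ka1 (r = 0.953), for Slc5a2 Slc26a1 (r = 0.932) and Lrrc19 (r = 0.911), and for Slc5a9 Dock9 (r = 0.876) and Gm5524 (r = 0.870). For Slc2a1 they were Fam3c (r = 0.937) and Scin (r = 0.917), for Slc2a2 Nln (r = 0.924) and Gm8128 (r = 0.922), for Slc2a4 Sspn (r = 0.844) and Tfpi (r = 0.826), and for Slc2a9 Gm5524 (r = 0.900) and Gne (r = 0.892). These values are descriptions over libraries that share groups and dates, chosen as the highest of many.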

How the data were processed

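Kidney RNA from 16 mice was sequenced as paired 50 bp reads. The authors aligned reads with STAR to GRCm39 with GENCODE vM35 and deposited estimated counts per gene and per transcript from StringTie, which were whole numbers, so rounding changed nothing. All columns matched a library (0 left over). Genes with at least 100 counts in total were tested with edgeR 4.0.16 (glmQLFit and glmQLFTest, TMM, 1 mean per labelled group, all 16 libraries, 12 residual degrees of freedom, two-sided, Benjamini-Hochberg adjustment over all genes, threshold 0.05). Normalised counts are counts over median-of-ratios size factors, and CPM are counts scaled to a fixed library total. TPM used transcript lengths from GENCODE vM39 (99.8% of transcript counts matched). Where a symbol had more than 1 row (232 symbols), the most abundant row was used. Named genes were the 8 members, related carriers and regulators that passed or had the 2 smallest p-values per list, and the 2 genes most correlated with each member. Members and lists were chosen with earlier results of these data known. Leaving out ND_B12 4 and D_C 1, alone or with D_C 2, was chosen after seeing the data. Replicates are separate mice by the labels. On simulated data for diabetes averaged over treatments, edgeR recovered 181 of 200 changed genes among 25093 with 3.72% false calls, and DESeq2 1.42.0 recovered 191 with 17.3%. The simulated log2 change was 1 in either direction, with true labels and no date effect. Smaller changes and doubtful labels were not assessed by it. Alternatives were DESeq2, upper-quartile normalization, other filters, the label date, a replicate block, the compared groups alone and each library left out. Proteins and promoters outside the RefSeq table were not analysed here. Tools were R 4.3.3, Python 3.11.15, pandas 2.3.3, numpy 2.4.6, scipy 1.17.1 and matplotlib 3.10.9.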

Additional observations from a re-analysis of the deposited data

Results flagged for a closer look

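Of 32 combinations of a carrier and a labelled group, 3 had a library far from the other libraries of its group, where chance flags about 1 in 20. Slc5a10 in ND_B12 4 had 27489 normalised counts, where the other ND_B12 libraries had 11132 to 12642, and this is a library whose genotype is in doubt. Slc5a10 in D_B12 3 had 34016, where the others had 23349 to 24171. Slc5a1 in ND_C 4 had 6146, where the others had 4444 to 4681.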

How the results depend on the processing

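Results below are numbers of carriers called or log2 fold changes. DESeq2 called 1 carrier for diabetes in untreated kidneys, for B12 in diabetic kidneys and for the interaction (Slc2a1), and 1 for diabetes averaged over treatments (Slc5a10). Of all 25408 genes it called 1467, 569, 781 and 1742 in these comparisons, in the same order. Leaving out ND_B12 4 and D_C 1 together was a setting chosen after seeing the data. It gave 4 carriers for diabetes in untreated kidneys (beside 8.57% of all genes) and 2 in B12-treated kidneys (beside 2.8%). It gave 3 averaged (beside 10.2%) and 1 for B12 in diabetic kidneys (beside 0.87%). It also turned Slc2a9 for diabetes in B12-treated kidneys (0.058), Slc2a4 for diabetes averaged (-0.0016), Slc5a10 for B12 in non-diabetic (-0.13) and diabetic kidneys (-0.20), and Slc2a2 for B12 in non-diabetic kidneys (-0.0023). With D_C 2 left out as well, also chosen after seeing the data, the carriers called were 5 for diabetes in untreated kidneys (Slc5a10, Slc2a1, Slc2a2, Slc2a9 and Slc5a9), 2 in B12-treated kidneys, 4 averaged (Slc5a10, Slc2a2, Slc2a9 and Slc5a9), 1 for B12 in diabetic kidneys and 1 for the interaction (both Slc2a1). In this setting edgeR called 1660, 1112, 2050, 659 and 607 of all genes in these comparisons, in the same order. Leaving D_C 2 out as well turned Slc5a2 for diabetes in untreated kidneys (0.015) and averaged (0.0012), for B12 in diabetic kidneys (-0.0015) and for the interaction (-0.027), Slc2a9 for diabetes in B12-treated kidneys (0.058), Slc5a10 (-0.13) and Slc2a2 (-0.0025) for B12 in non-diabetic kidneys, Slc5a9 for B12 in diabetic kidneys (-0.079) and Slc5a10 for the interaction (0.22). With each library left out in turn, the carriers called ran from 0 to 3 for diabetes in untreated kidneys (Slc2a1, Slc5a1 and Slc5a10 without D_C 1, Slc2a1 without ND_B12 4 or D_B12 1), from 0 to 2 averaged (Slc5a1 and Slc5a10 without D_C 1, Slc5a10 without ND_B12 4) and from 0 to 1 for the interaction (Slc2a1 without D_C 1). Over all genes these fits called 0 to 1552, 235 to 1700 and 0 to 266, in the same order.

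The label date as a covariate called 1 carrier for the interaction (Slc2a9), beside 753 of all genes. It turned diabetes in untreated kidneys for Slc5a9 (-0.15) and Slc2a2 (-0.27), in B12-treated kidneys for Slc5a9 (-0.41) and Slc2a2 (-0.49), and averaged for Slc5a9 (-0.28), Slc2a2 (-0.38), Slc2a4 (-0.21) and Slc2a9 (-0.37). For B12 in diabetic kidneys it turned Slc5a2 (-0.085), Slc5a9 (-0.20), Slc5a10 (-0.21) and Slc2a2 (-0.18), and for the interaction Slc5a2 (-0.088) and Slc2a2 (-0.22). Upper-quartile normalization turned Slc5a9 for the interaction (0.012). Leaving out single libraries moved Slc2a2 for diabetes in untreated kidneys between -0.011 and 0.21, Slc2a9 for diabetes in B12-treated kidneys between -0.14 and 0.054, and Slc5a10 for B12 in non-diabetic kidneys between -0.13 and 0.42. For B12 in diabetic kidneys they moved Slc5a1 between -0.28 and 0.093, Slc5a10 between -0.19 and 0.43 and Slc2a9 between -0.16 and 0.011, and for the interaction Slc5a9 between -0.11 and 0.056, Slc5a10 between -0.46 and 0.20 and Slc2a2 between -0.059 and 0.23. The cause of these changes was not tested.

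Fitting the replicate number as a block called 0 carriers in all 7 comparisons, as without it, and gave Slc5a10 a log2 fold change of 0.81 for diabetes averaged (adjusted p = 0.107 by edgeR). The numbers did not pair the samples, since 5 of 24 same-numbered pairs had correlated deviations over 0.1 (median 0.007). Genes called over the whole table moved more. For diabetes in untreated kidneys there were 423, and 1467 with DESeq2, 63 with a filter of 1 count, 2 with the date, 269 with the block, 242 with the compared groups alone and 0 to 1552 with libraries left out in turn. For diabetes in B12-treated kidneys there were 209, and in the same order 1088, 35, 29, 25, 203 and 0 to 441, and 18 with upper-quartile normalization. For diabetes averaged there were 767, and 1742 with DESeq2, 427 with the filter, 0 with the date, 478 with the block and 235 to 1700 with libraries left out. For B12 in diabetic kidneys and the interaction there were 0, and the date gave 204 and 753, the block 0 and 147. Filters changed no call or sign among the 48 log2 fold changes of carriers.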
